A study of Saccharomyces cerevisiae with 4 samples.

Results

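The comparison described here sets the evolved yeast strain TAT12 against its parental strain S288C, over every gene probe of the array. It is 1 of the 4 dye swaps in the series and was chosen by its title, which names both strains. It covers 2 of the 8 arrays and 6336 gene probes, each printed as 2 spots per array. S288C is a laboratory strain of Saccharomyces cerevisiae of mating type α, described in the methods with a functional SUC2 and with the alleles gal2, mal2, mel, flo1 and flo8-1 as well as hap1, ho, bio1 and bio6. TTY23 was selected from populations of S288C that evolved at elevated temperature. TAT12 was then selected from populations of TTY23 that evolved with acetic acid at low pH, so it carries both histories, and each evolved strain is a single isolate. By the labels, S288C and TAT12 were grown alike at 30 °C, 2% glucose, pH 5.0 and 250 rpm, and the methods add that no acetic acid was present. Total RNA was taken from the middle of the exponential phase, so the strains were compared outside the conditions that selected them. The first array held S288C in Alexa555 and TAT12 in Alexa647, and the dyes were exchanged on the second. Both arrays compare the same pair of strains and count as 1 replicate, so n = 1, no value has an error between cultures and no test was run.

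Yeast in exponential growth on glucose ferments it through glycolysis and keeps the genes for ribosomes and translation highly transcribed. When proteins unfold, the heat shock factor Hsf1 raises a small set of chaperone genes, among them the Hsp70 family, which binds unfolded chains, Hsp90 with its helpers, and the disaggregase Hsp104, which pulls aggregates apart. Ty elements are retrotransposons that sit in many copies in the genome and are transcribed into RNA. At the plasma membrane, the proton pump Pma1 keeps the cytosol near neutral against an acid medium.

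Each gene is given as the log2 ratio of TAT12 over S288C, the mean of both arrays, with the values of the first and the second array in parentheses in that order. Net signals are scanner intensities after subtraction of the local background, averaged over both spots of a gene. A gene was called over or down expressed where its z-score was past a limit. This score takes the 100 genes of closest intensity, subtracts their mean from the ratio and divides by their SD, and a call needed a value above 2 or below −2, the threshold of the study's methods. By this rule 197 genes (3.11%) were over expressed and 123 (1.94%) were down expressed in TAT12. These shares of all genes are the baseline for the counts of each gene list below. A stricter set held the genes whose 4 spots all pointed the same way and whose signal was above the empty spots in both dyes of both arrays. It held 68 over expressed genes (1.07% of all probes, 2.60% of the 2611 above background) and 17 down expressed genes (0.268% and 0.651%). These are called genes past the threshold on every spot in what follows.

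**Figure D1:**
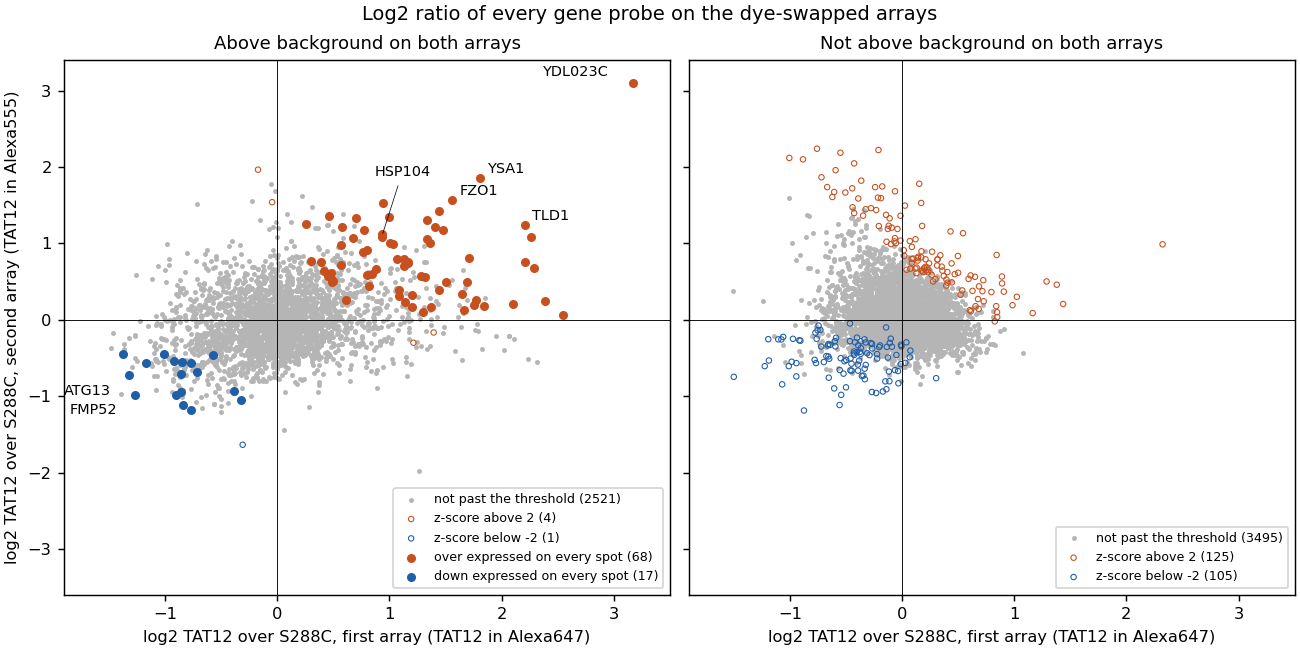
Log2 ratio of TAT12 over S288C on the first array (horizontal axis) and on the second (vertical axis), 1 point per gene probe, for the 2611 probes above background on both arrays (left) and for the others (right). Filled points are the 68 and 17 genes past the threshold on every spot, which lie in the upper right and lower left corners, and open points are the other called genes, most of which lie in the right panel.

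The arrays of the pair resembled each other only among bright genes. Duplicate spots correlated with r = 0.790 on the first array and 0.899 on the second, whereas the ratios of both arrays correlated across genes with r = 0.0917, and with r = 0.259 over the genes above background. Over quintiles of brightness, from the dimmest to the brightest, this correlation went from −0.35 to 0.30, and of the 68 genes over expressed on every spot 39 lay in the brightest quintile and 27 in the next. Genes are not independent replicates, and the points share dyes and arrays. Before normalization, the median net log2 ratio of the brightest quintile was −1.05 on the first array and −0.05 on the second. The net signals of a bright gene on the first array can thus be lower for TAT12 although its normalized ratio is above 0. In the other quintiles, from the dimmest, the median was 0.24, 0.05, −0.14 and −0.41 on the first array. On the second it was 0.71, 0.59, 0.43 and 0.21, so most of these genes read higher in TAT12 there before normalization. Net signals that are higher in TAT12 in either dye are therefore not separate evidence beside the normalized ratio. The difference between the arrays of the pair, which holds the dyes and not the strains, put 113 genes above 2 and 198 below −2 by the same z-score. On every spot and above background it put 57 above 2 and 25 below −2, about as many genes as the 68 and 17 of the strain comparison.

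The gene that differed most was YDL023C, a reading frame annotated as dubious that overlaps GPD1, the glycerol-3-phosphate dehydrogenase gene. Its net signal was 562 in TAT12 and 64.0 in S288C on the first array. On the second, the same probe read 1273 in TAT12 and 126 in S288C. Signal in S288C was thus low and signal in TAT12 high in both dye orientations, and the log2 ratio was 3.14 (3.17, 3.10). The probe of GPD1 itself, which lies on the opposite strand, gave −0.11 (−0.65, 0.43) and was not above background. In the other swaps with TAT12, YDL023C stood at 2.11 over TTY23 and at 0.47 over AT22, a strain evolved from S288C with acetic acid at low pH. All these comparisons share the strain TAT12.

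The next largest ratio was that of YSA1, which encodes a hydrolase of ADP-ribose. It read 5843 in TAT12 and 5353 in S288C on the first array and 23166 and 6281 on the second. Its normalized ratio was 1.83 (1.81, 1.85), and all 4 spots lay within a narrow range. FZO1, the GTPase that fuses mitochondrial outer membranes, had net signals of 410 and 214 on the first array and of 1113 and 374 on the second. TAT12 was the brighter strain in either dye, and the ratio was 1.56 (1.56, 1.56). The bifunctional arginine synthesis gene ARG5,6 read 237 in TAT12 and 99.7 in S288C, then 910 and 405, for a ratio of 1.32 (1.47, 1.18). Against TTY23 the same gene stood at −0.01, and YSA1 and FZO1 stood at 0.97 and 0.50.

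TLD1, whose product sits on lipid droplets, was over expressed at 1.72 (2.21, 1.23), with net signals of 1073 and 496 on the first array and 1942 and 873 on the second. LOG1, a phosphoribohydrolase gene on chromosome X, gave 1.68 (2.26, 1.09), with net signals of 586 and 189 on the first array and 415 and 167 on the second. TAT12 was brighter in either dye for both genes, and both ratios were larger on the first array. The remaining members of the 12 largest rises were FLC3, a putative FAD carrier, at 1.48 (2.29, 0.67), the uncharacterized YJL118W at 1.48 (2.20, 0.76), RPL43A, a protein of the large ribosomal subunit, at 1.43 (1.44, 1.42), the pheromone-regulated PRM7 at 1.32 (1.33, 1.30) and HSM3, a chaperone of proteasome assembly, at 1.31 (1.41, 1.21). RPL43A and PRM7 were even between arrays, although the net signals of both were lower in TAT12 on the first array. PRM7 read 8244 in TAT12 and 11193 in S288C on the first array and 29771 and 11867 on the second. RPL43A read 6099 and 7418, then 24216 and 8907. The twelfth was a second probe of PMA1, marked by an added R in its identifier whose meaning the files do not give.

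**Figure D2:**
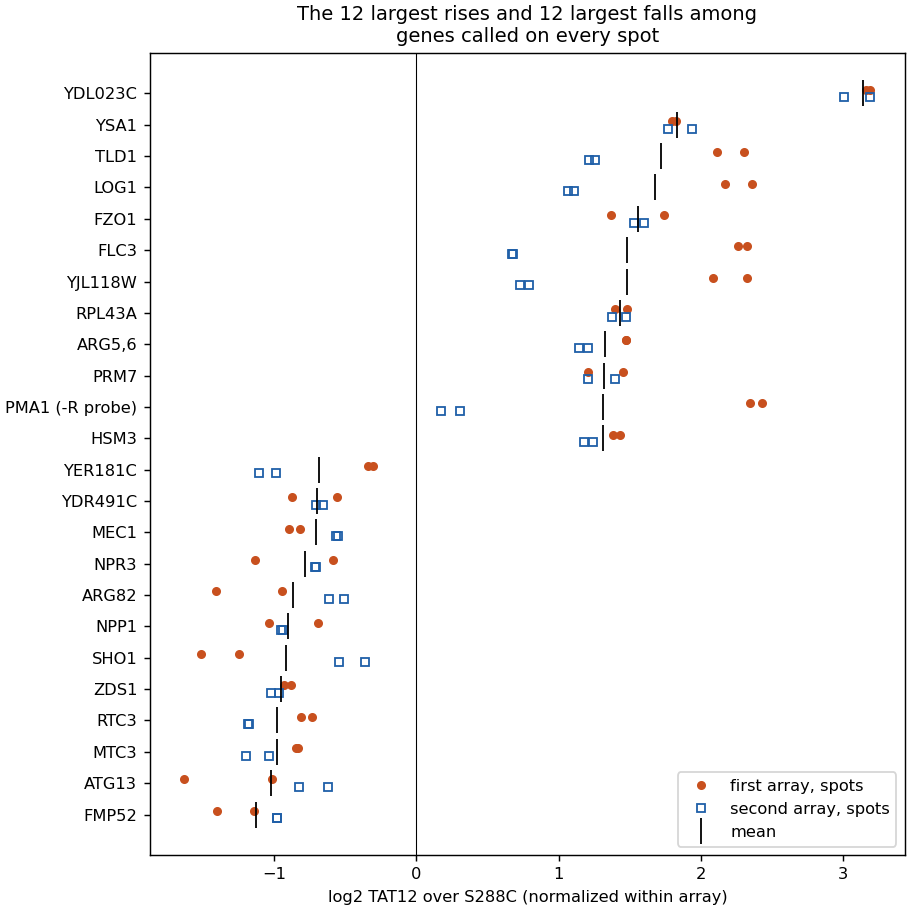
Log2 ratio of TAT12 over S288C on every spot for the 12 largest rises and the 12 largest falls among the genes past the threshold on every spot whose probe names 1 gene (circles, spots of the first array, squares, spots of the second, bars, mean of both arrays). YDL023C stands apart at 3.14, YSA1 and FZO1 have nearly equal arrays, and the second PMA1 probe rests mostly on the first array.

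PMA1 was over expressed on both of its probes. The net signal of the plain probe was 346 in TAT12 and 205 in S288C on the first array, and 252 and 197 on the second. That of the second probe was 517 and 137, then 506 and 434. TAT12 was higher on both probes and both arrays, but by much more on the first array, with ratios of 0.77 (1.37, 0.16) and 1.31 (2.39, 0.24). Over the 13 genes of the proton pump and its regulators, 1 was over expressed and 0 were down expressed, and the median was −0.01 beside 0.02 over all genes.

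The 12 largest falls were smaller than the rises. FMP52, a protein of the mitochondrial outer membrane, read 376 in TAT12 and 2318 in S288C on the first array and 4174 and 8408 on the second, for a ratio of −1.12 (−1.27, −0.98). ATG13, the regulatory partner of the autophagy kinase Atg1, read 135 and 651, then 437 and 767, for −1.02 (−1.32, −0.72). In both genes S288C was brighter in either dye. ZDS1, which acts with the phosphatase subunit Cdc55 in the cell cycle, fell by 0.95 (0.91 on the first array, 0.99 on the second). CDC55 itself was over expressed on every spot at 0.70 (0.80, 0.59), a gene chosen after its values were seen.

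The other 9 falls were as follows. SHO1, an osmosensor of the HOG pathway, stood at −0.91 (−1.38, −0.45), NPR3, a subunit of the complex that restrains TORC1 when nitrogen is short, at −0.78 (−0.86, −0.71), and MEC1, the checkpoint kinase for damaged DNA, at −0.71 (−0.85, −0.56). ARG82, an inositol polyphosphate kinase that also takes part in arginine control, stood at −0.87 (−1.17, −0.56), while ARG5,6 rose. RTC3 (−0.98), MTC3 (−0.98), the nucleotide pyrophosphatase gene NPP1 (−0.90), YDR491C (−0.70) and YER181C (−0.68) completed the list. Against TTY23 the 12 genes lay between −0.54 for FMP52 and 0.06 for YER181C, and against AT22 between −0.07 for YDR491C and 0.42 for ATG13.

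Another reading of the arrays asked which genes passed the threshold on each array alone. The first array called 146 genes over and 175 down expressed, and the second 231 and 63. Only 14 genes were called in the same direction by both, 11 over and 3 down expressed, while 27 were called in opposite directions. Of the 14, 10 were above background and all 10 of these were called over expressed on each array, whereas 0 of the 27 were above background. The 10 were YDL023C, YSA1, TLD1, LOG1, FZO1, ARG5,6, the transcription factor gene YAP6 at 1.19 (1.36, 1.01), YER085C at 0.87 (0.68, 1.07), the mitochondrial disaggregase gene HSP78 at 0.77 (0.57, 0.97) and 1 Ty probe at 1.03 (0.94, 1.12). This Ty probe was not called on the mean of both arrays, where its z-score was 1.76.

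The other 4 genes of this set were not above background. They were YGL088W at 1.66 (2.32, 0.99), the carbonic anhydrase gene NCE103 at −0.84 (−0.94, −0.74), PLM2 at −0.96 (−1.07, −0.85) and the drug exporter gene YOR1 at −1.03 (−0.88, −1.19). Of their 4 net signals each, YGL088W, PLM2 and YOR1 missed the limit set by the empty spots in 1 and NCE103 in 3. NCE103 read 61.5 in TAT12 and 184 in S288C on the first array, but 69.3 and 84.9 on the second. YGL088W lies next to MF(ALPHA)2, the second gene for the α pheromone, in the order of the systematic names. MF(ALPHA)2 was also over expressed, at 0.66 (1.02, 0.30), but it too was not above background. Any link between these neighbours was not tested.

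Hsf1 targets were counted as a list. Of the 23 core targets measured, 7 were over expressed and 0 down expressed, beside 3.11% and 1.94% of all genes, and 5 of the 7 passed on every spot. Their median ratio was 0.39 (0.48, 0.41) beside 0.02 (0.01, −0.01) over all genes, and 12 members were above 0 on both arrays. These counts describe a list chosen with earlier results of the same arrays known, and several of its members are named in the study for their change on these arrays, so they are not independent evidence of its direction. The median lay above 0 under each of the 5 other backgrounds and scalings tried, from 0.21 to 0.51.

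HSP104 encodes the cytosolic disaggregase. Its net signal was 177 in TAT12 and 112 in S288C on the first array and 501 and 216 on the second, and its ratio was 1.01 (0.93, 1.08). MBF1, a transcriptional coactivator, read 236 and 123, then 301 and 171, for 0.92 (1.28, 0.57). Signal was higher in TAT12 in either dye for both genes, as it was for the co-chaperone CPR6 at 0.54 (0.48, 0.61) and for HSP78. BTN2, which gathers misfolded proteins, and FES1, the exchange factor of cytosolic Hsp70, were called at 0.68 and 0.62 but were not above background. Against TTY23, HSP104 stood at 1.13 and MBF1 at 0.52, and the median of the regulon was 0.29, while against AT22 it was 0.04.

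The regulon was not uniform. SIS1, a J-domain partner of Hsp70, gave 0.68 (0.56, 0.80) and the Hsp90 gene HSC82, whose probe also names HSP82, gave 0.60 (0.74, 0.47), both without passing the threshold. HSP60 and HSP10, which form the mitochondrial chaperonin, gave −0.73 (−0.97, −0.49) and −0.54 (−0.77, −0.30), also short of it. So the cytosolic members lay mostly above 0 while these chaperonin genes lay below 0 on both arrays. The members did not divide by compartment, since the mitochondrial HSP78 stood at 0.77 (0.57, 0.97). HSF1 itself stood at 0.27 (0.27, 0.27) with a probe that was not above background.

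**Figure D3:**
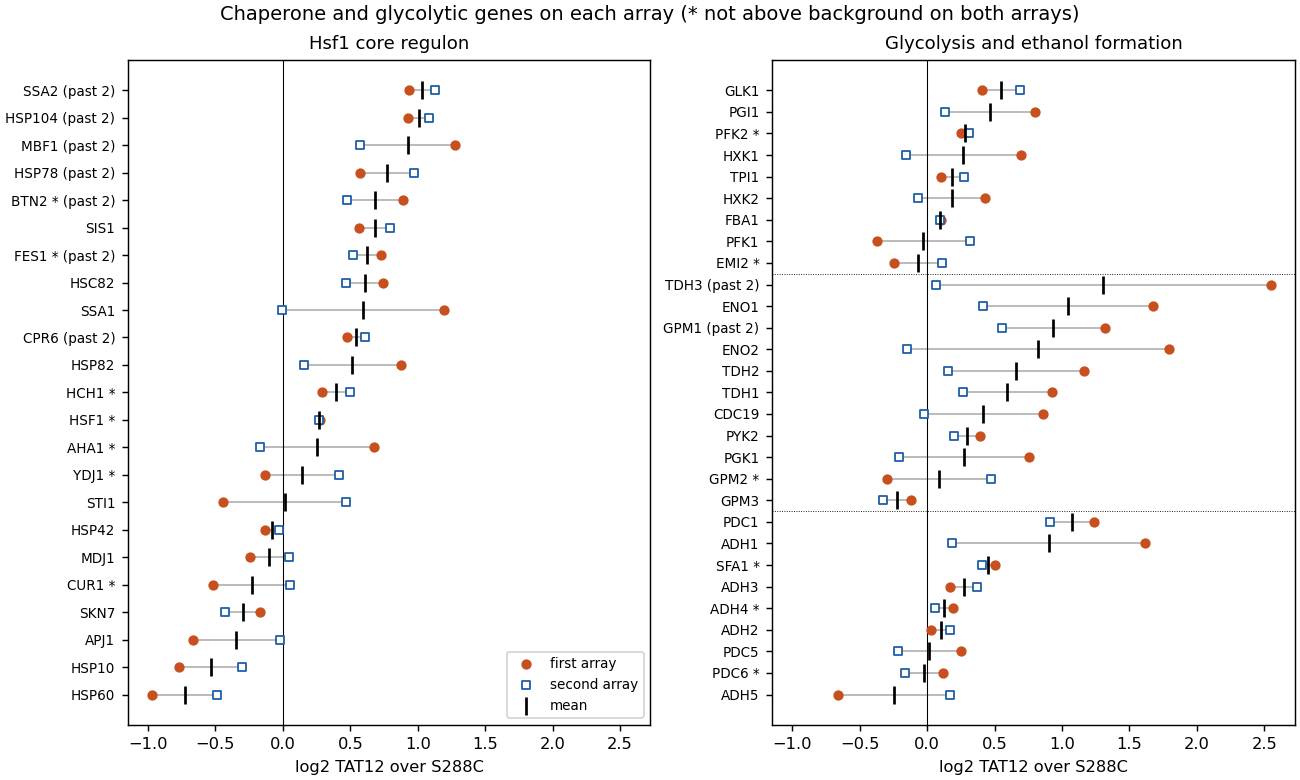
Log2 ratio of TAT12 over S288C on the first array (circles), on the second (squares) and as their mean (bars) for the 23 Hsf1 targets (left) and for glycolysis and ethanol formation (right, upper glycolysis at the top, then lower glycolysis, then ethanol). HSP104, MBF1, HSP78 and the SSA2 probe, which also names SSA1, are right of 0 on both arrays, while most genes of lower glycolysis are far right on the first array and near 0 on the second, and probes such as those of TDH3 and TDH2 name both genes.

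The list of cytosolic Hsp70 and Hsp110, which also holds the exchange factor gene FES1, had 11 genes. Of these, 4 were over expressed and 0 down expressed, beside 3.11% and 1.94% of all genes, and the median was 0.44 (0.72, 0.06). Of the 4, 1 was FES1, whose probe was not above background. The probe that names SSA1 and SSA2 gave 1.03 (0.93, 1.13) and the Hsp110 gene SSE1 gave 0.63 (0.82, 0.44), both above 0 on either array. The heat-inducible SSA4 gave 1.01 (1.84, 0.18), most of it from the first array. SSE2, the second Hsp110 gene, stood at −0.59 (−0.92, −0.26) without passing the threshold. Median centring in place of loess reduced the median of this list to 0.08. It also moved the median of all genes above background, from −0.01 to −0.18.

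Other folding machines had few called genes, and their lists share members with those above, such as HSP104 and BTN2. Their counts are thus not all separate from that of the Hsf1 list. Of 14 genes of Hsp90 and its co-chaperones, 2 (14.3%) were over expressed, CPR6 and CPR7, the second not above background, with a median of 0.09. Of 12 genes of the disaggregase and the small heat-shock proteins, 3 (25.0%) were over expressed, beside 3.11% of all genes. They were HSP104, HSP26 and BTN2, and the list median was 0.15. HSP26 gave 0.89 (1.29, 0.50) with a signal not above background. Among 20 J-domain genes 0 were over and 1 was down expressed, JAC1 at −0.49, which was not above background. Among 15 genes of the CCT chaperonin and prefoldin both counts were 0. Among 25 genes of folding in the endoplasmic reticulum 2 were over and 1 was down expressed. These were LHS1, MPD1 and DER1, and none of the 3 was above background. CCT2 had the largest ratio of the chaperonin list at −0.88 (−0.84, −0.91), short of the threshold.

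Lower glycolysis had the highest median of the 60 gene lists described, and it rested mostly on 1 array. Over its 11 genes from glyceraldehyde-3-phosphate to pyruvate the median was 0.59, with 0.93 on the first array and 0.16 on the second. With median centring it was 0.13, beside −0.18 over all genes above background. The threshold was passed by 2 of the 11, both on every spot. GPM1, phosphoglycerate mutase, read 577 in TAT12 and 452 in S288C on the first array and 1490 and 1072 on the second, for 0.94 (1.32, 0.56). The probe that names TDH2 and TDH3 read 3378 and 1624 on the first array, but 1686 and 1729 on the second, for 1.31 (2.55, 0.06). Signals of the strains were thus apart on the first array and nearly equal on the second.

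The steps around lower glycolysis had smaller values. Over the 9 genes of upper glycolysis 0 passed the threshold. Their median of 0.19 (0.25, 0.13) turned to −0.14 with median centring, beside −0.18 over all genes above background. The glucokinase gene GLK1 gave 0.55 (0.40, 0.69) and PGI1 gave 0.47 (0.80, 0.13). Ethanol formation counted 0 of 9 genes, although PDC1, the main pyruvate decarboxylase, stood at 1.07 (1.24, 0.91) and ADH1, the main alcohol dehydrogenase, at 0.90 (1.62, 0.19), both short of the threshold for genes of their brightness. In glycerol synthesis 1 of 10 genes was over expressed, the glycerol phosphatase gene GPP2 at 0.64 (0.56, 0.72). Trehalose synthesis and breakdown, with 10 genes, and glycogen, with 11, counted 0 in both directions.

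SUC2, the secreted invertase that splits sucrose and is repressed by glucose, had the lowest z-score among genes above background. Its net signal was 77.2 in TAT12 and 120 in S288C on the first array and 125 and 379 on the second. The strains were apart mainly on the second array, the ratio was −0.97 (−0.31, −1.64), and 1 of its 4 spots did not point down. It was the 1 gene called among 15 genes of galactose, maltose and sucrose use, whose median was −0.15.

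**Figure D4:**
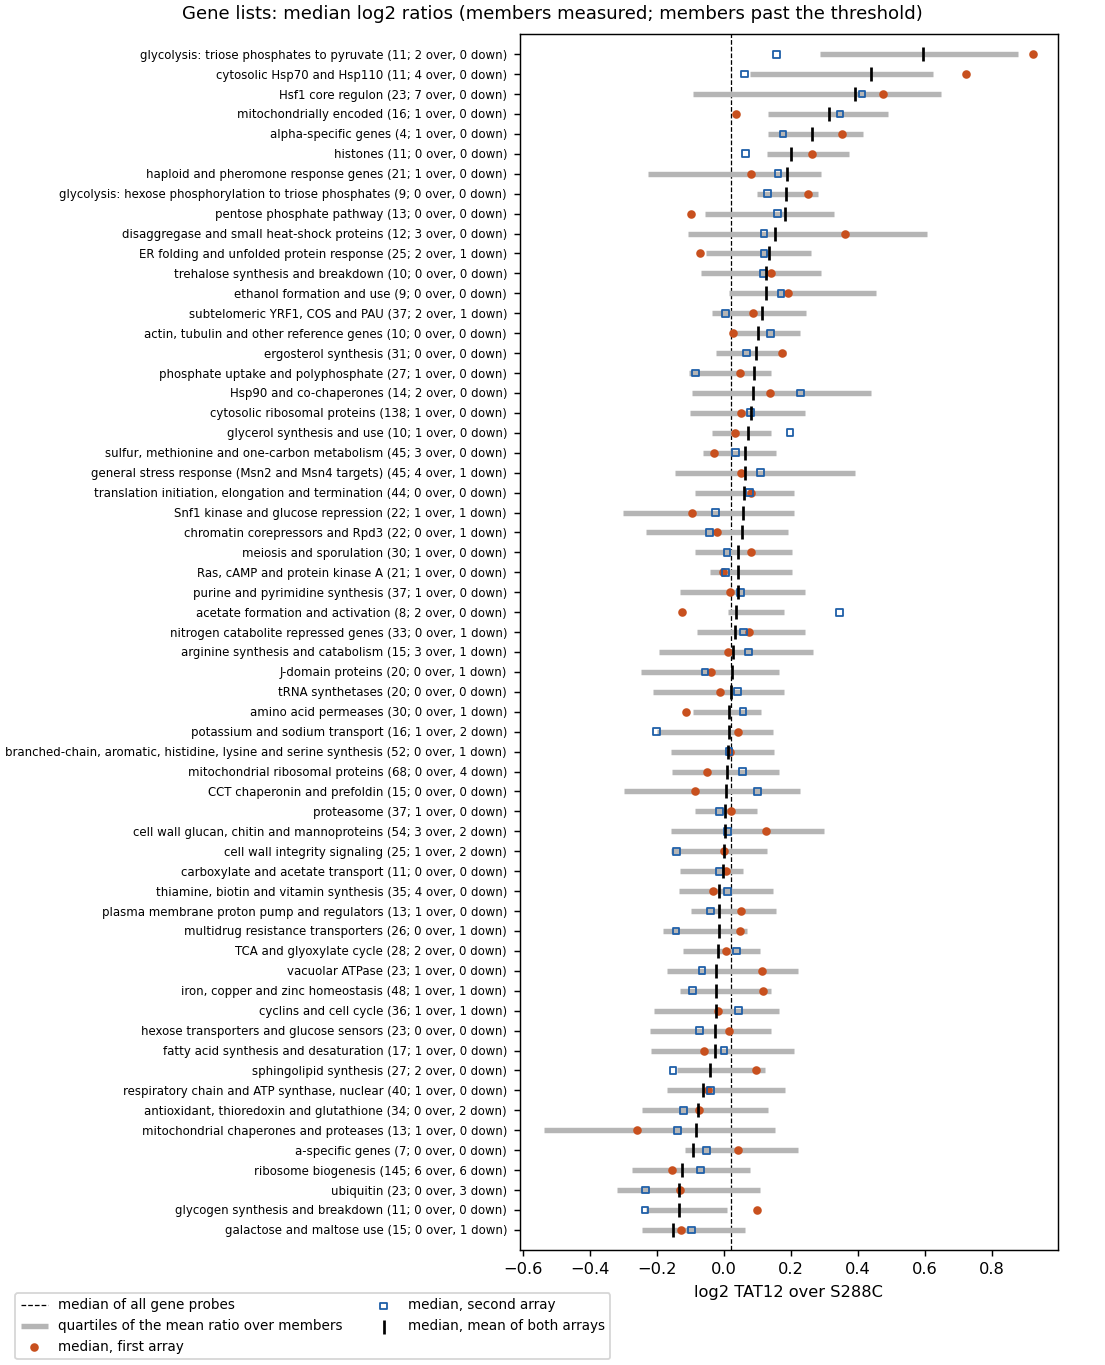
Median log2 ratio of TAT12 over S288C of 60 gene lists, on the first array (circles), on the second (squares) and for the mean of both (bars), with the quartiles of the members as grey lines and the median of all gene probes as a dashed line. Numbers after each name are the members measured and those over and down expressed, and lower glycolysis, Hsp70 and the Hsf1 regulon lie at the top with medians of 0.59, 0.44 and 0.39.

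Few genes of protein synthesis passed the threshold. Of 138 cytosolic ribosomal protein genes 1 was over expressed, RPL43A, and 0 were down expressed. Their median was 0.08 (0.05, 0.08), which turned to −0.05 with median centring, beside −0.18 over all genes above background. In ribosome biogenesis, which processes rRNA and assembles subunits, 6 of 145 genes were over expressed and 6 down expressed. The median was −0.12 (−0.16, −0.07), and it stayed below 0 in each of the 5 other backgrounds and scalings. Of the 145, 55 were below 0 on both arrays and 17 above 0 on both, beside 1573 and 1608 of all 6336 probes. By the mean of both arrays, 37.2% of the list was above 0, beside 53.1% of all genes. Among its members over expressed was the helicase gene DBP7 at 1.09 (1.69, 0.49), the single one on every spot, and among those down expressed LTV1, which acts in the export of the small subunit, was the single one on every spot at −0.67 (−0.77, −0.56), both chosen here after their values were seen. Translation factors, with 44 genes, and tRNA synthetases, with 20, counted 0 in both directions. Mitochondrial ribosomal proteins counted 0 over and 4 down expressed among 68, or 5.88% down beside 1.94% of all genes. The 4 were NAM9, MRP2, MRPS16 and MRPL15 with ratios from −0.51 to −0.29, and none of them was above background.

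Ubiquitin genes counted 0 over and 3 down expressed among 23, or 13.0% down beside 1.94% of all genes, namely SAN1, UBC4 and the ligase gene RSP5 at −0.68 (−1.10, −0.26), none of them above background, and the list median was −0.13. The 37 proteasome genes had a median of 0.00 with 1 over expressed, RPN13 at 0.36, which was not above background. Histone genes had a positive ratio in 11 of 11 members, beside 53.1% of all genes, with a median of 0.20 (0.26, 0.06). However, 4 were above 0 on both arrays and 0 passed the threshold.

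In amino acid and cofactor metabolism, single genes passed rather than pathways. Sulfur and one-carbon metabolism counted 3 of 45 genes over expressed. MET6, the methionine synthase, gave 0.83 (0.77, 0.89) on the plain probe and 0.77 (0.88, 0.66) on its second probe, and SHM2, the cytosolic serine hydroxymethyltransferase, gave 0.43 (0.61, 0.26). MET6 read 163 in TAT12 and 118 in S288C on the first array and 503 and 256 on the second, so the strains kept their order in either dye. The third was MET5, at 0.45 (0.10, 0.80) and not above background. Among 15 arginine genes, 3 were over and 1 was down expressed. ARG5,6 was the 1 gene of the 3 above background. ARG2, at 0.81 (−0.43, 2.05), and ARG3, at 0.55 (0.07, 1.03), were called mostly from the second array and lie on chromosome X, described further on.

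The list of thiamine, biotin and other vitamins, which also holds phospholipid precursors, counted 4 of 35 over expressed, or 11.4% beside 3.11% of all genes. On every spot these were CHO1, phosphatidylserine synthase, at 0.90 (1.66, 0.13) and THI20, of thiamine synthesis, at 0.50 (0.49, 0.50). The other 2, PHO3 and INO1, were not above background. Pyrimidine and purine synthesis counted 1 of 37, the dihydroorotase gene URA4, which read 362 in TAT12 and 225 in S288C on the first array and 507 and 225 on the second. URA4 was higher in TAT12 in both dyes, at 1.20 (1.34, 1.06). Fatty acid synthesis counted 1 of 17, FAS1 at 0.69 (1.14, 0.23).

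Other genes over expressed on every spot, chosen after their values were seen, stood outside the lists. They include HEM15, the ferrochelatase of haem synthesis, at 1.01 (1.03, 1.00), TIM23, the core of an inner membrane translocase of mitochondria, at 0.97 (0.77, 1.17), and NPT1 and QNS1, both of NAD synthesis, at 0.96 (1.13, 0.79) and 0.54 (0.30, 0.77). HEM15 read 1605 in TAT12 and 2166 in S288C on the first array and 6086 and 3135 on the second, which is the pattern of bright genes described above. HRT1, the RING subunit of SCF ubiquitin ligases, gave 1.24 (0.94, 1.53), and the SUMO gene SMT3 gave 0.71 (1.30, 0.11). BUD28, the other dubious reading frame of this set, gave 1.17 (1.00, 1.34) and overlaps RPL22A, whose own probe gave 0.16 (0.09, 0.24).

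The cell wall list counted 3 genes over and 2 down expressed among 54. FKS1, the synthase of the main wall glucan, read 170 in TAT12 and 120 in S288C on the first array and 318 and 134 on the second, and its ratio was 0.86 (0.80, 0.91). TAT12 was brighter in either dye. The wall mannoprotein gene SED1 gave 0.97 (1.76, 0.19), mostly from the first array, and CHS1 and PIR3 were called but were not above background. The probe that names the flocculins FLO1, FLO5 and FLO9 stood at −0.73 (−0.93, −0.54) on every spot. A pair of probes that carry the same names of the PAU family, genes of seripauperin proteins near chromosome ends, went opposite ways on every spot. The probe YLL064C gave 1.26 (1.71, 0.81) and the probe YNR076W gave −0.73 (−1.01, −0.44), and their signals cannot be assigned to single genes.

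Transport and signalling lists held few calls, most of them not above background. Among 26 multidrug transporters YOR1 was the 1 gene called, among 30 amino acid permeases it was PTR2, a peptide carrier, at −0.86 (−1.19, −0.53), and among 16 potassium and sodium carriers TOK1 was over expressed and ENA1 and NHA1 were down expressed. Of 23 hexose transporter and sensor genes and of 11 carboxylate and acetate carriers, 0 passed in either direction. JEN1, the lactate and pyruvate carrier, stood at 0.47 (0.43, 0.50) with a signal not above background. Antioxidant genes counted 0 over and 2 down expressed among 34, TRR1 at −0.53 (−0.51, −0.54) and GTT1 at −0.40 (−0.38, −0.42). Of 45 targets of the general stress factors Msn2 and Msn4, 4 (8.89%) were over and 1 (2.22%) was down expressed, beside 3.11% and 1.94% of all genes. Those over expressed were HSP104, HSP26, SSA4 and the aldehyde dehydrogenase gene ALD3 at 0.92 (1.38, 0.46), and GTT1 was down expressed. HSP104, HSP26 and SSA4 were already counted in the chaperone lists above.

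Energy, membrane and nutrient lists completed the picture. Acetate formation and activation counted 2 of 8 genes over expressed, ALD3 and the acetyl-CoA synthetase gene ACS1 at 0.56 (−0.12, 1.23), and the TCA and glyoxylate cycles counted 2 of 28, IDH1 at 0.55 and MDH3 at 0.43, all of them below background. Ergosterol synthesis counted 0 of 31, although ERG24 stood at 1.04 (1.32, 0.76) and ERG20 at 0.63 (0.58, 0.69). In the vacuolar ATPase 1 of 23 genes was over expressed, the catalytic subunit gene VMA1, which read 196 in TAT12 and 95.3 in S288C on the first array and 121 and 109 on the second. The first array carried that call, since the ratio was 0.46 (1.21, −0.30). Sphingolipid synthesis counted 2 of 27, LCB3 at 0.61 (0.65, 0.56) and ISC1 at 0.41 (0.13, 0.68). In the list of 22 genes of the Snf1 kinase and glucose repression, SNF1 itself was over expressed at 0.40 (0.83, −0.02). The corepressor gene TUP1 of the same list was down expressed at −0.41 (−0.59, −0.24). None of these 4 genes was above background.

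Mating type genes were read as a check of the strain. Of the 4 α-specific genes 0 were above background on both arrays, although S288C is described as mating type α, and of the 7 a-specific genes 5 were. STE2, the receptor for α pheromone made by a cells, read 321 in TAT12 and 356 in S288C on the first array and 386 and 297 on the second, for 0.49 (0.66, 0.32). Both strains thus gave signal at this probe in either dye, and 0 of the 7 genes passed the threshold. Whether the probes are specific to these genes was not tested.

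Most probes of Ty elements had a ratio above 0. They were examined after their values were seen. Of 67 such probes 61 were above background, 8 were over expressed (11.9% beside 3.11% of all probes) and 0 down expressed, and 7 of the 8 passed on every spot, as 1.07% of all probes did. Their median was 0.33 (0.37, 0.37), 54 were above 0 (80.6% beside 53.1% of all probes) and 38 were above 0 on both arrays. Since 65 of the 67 name several copies, the probes share targets and are not separate measurements. Probes that carry the same names could still differ. YDR210W-D stood at 0.96 (1.17, 0.76) and YLR410W-B at −0.07 (−0.25, 0.10), both above background. The 2 Ty probes that name 1 gene both had a ratio below 0, with a median of −0.16. With median centring the median of all 67 was 0.10, beside −0.18 over all genes above background. Against TTY23 the median was 0.37 and against AT22 it was 0.03. In a list of 16 genes of the mitochondrial genome 1 was over expressed, BI2 at 0.56 (−1.01, 2.12), which was not above background, and 0 were down expressed. Their median was 0.31 (0.03, 0.35), and with median centring it was 0.02, beside the same −0.18. Over all 23 mitochondrial probes 2 were over expressed, or 8.70%. The median of the 23 was 0.29 (−0.18, 0.42), so the arrays differed in sign. OLI1 and COX1 stood at 0.74 (1.06, 0.41) and 0.60 (1.06, 0.13) without passing the threshold.

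Over the chromosomes, X stood apart. Of its 389 probes 46 were over expressed, 11.8% beside 3.11% of all genes, and its median was 0.13 (0.03, 0.17). The genes behind this count were weak, with 4 of the 46 above background and 2, LOG1 and YJL118W, past the threshold on every spot. On the second array 28 of the 46 had a ratio above 1, on the first 2 had, and 22 of them were below 0 on the first. TOK1, a potassium channel gene, read 66.7 in TAT12 and 83.9 in S288C on the first array and 276 and 42.1 on the second, for 0.78 (−0.18, 1.75). ARG2, a gene of arginine synthesis, had the same shape at 0.81 (−0.43, 2.05). In the swaps of TAT12 with TTY23 and with AT22, 16 genes of chromosome X were over expressed in each, 4.11% of its probes beside 3.08% and 3.38% of all genes. In the swap of AT22 with S288C it was 1 of 34 genes called.

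The array was printed in the order of the genome, and 45 of the 46 genes were in print row 9 of its blocks. Of the 383 probes in that row, 37 had a ratio above 1 on the second array, 7 on the first and 1 on both. In the other rows, with 5953 probes, the counts were 95, 133 and 11. Chromosome X and print row 9 cannot be told apart in these arrays. Without print row 9, 152 genes were over and 119 down expressed, and 66 and 17 passed on every spot. Row 1, which holds chromosome I among others, had medians of −0.17 on the first array and 0.20 on the second, and of the 27 genes called in opposite directions by the arrays 16 lay in it. At the ends of the 32 chromosome arms, the medians over the 10 outermost genes ran from −0.19 to 0.21, with 7 arms above 0 and 6 below 0 on both arrays.

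**Figure D5:**
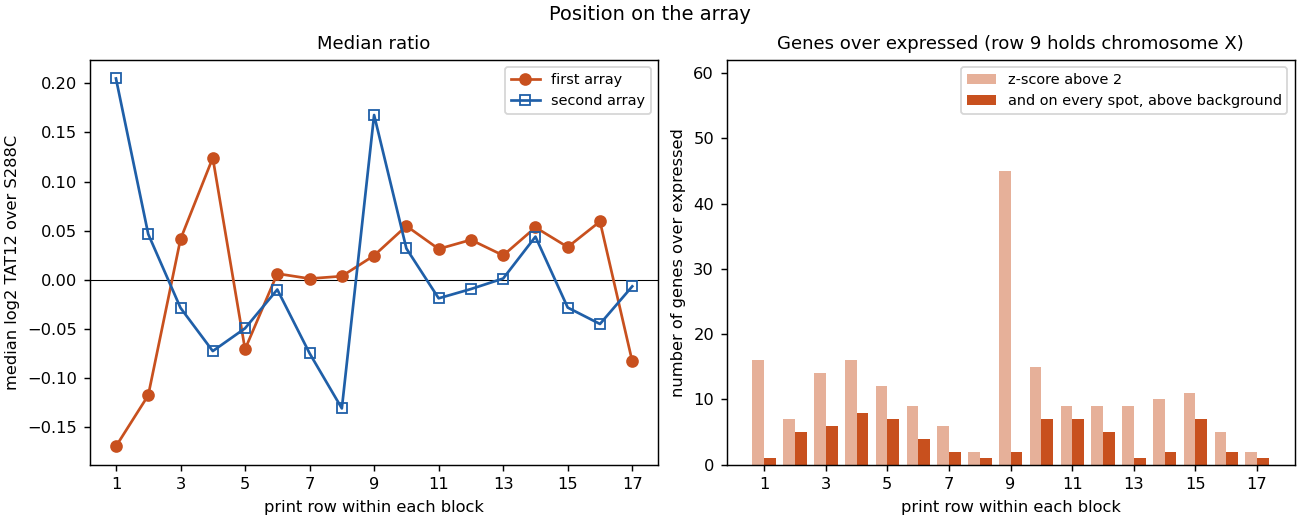
Median log2 ratio of TAT12 over S288C by print row on the first array (circles) and on the second (squares) (left), and number of genes over expressed by row, in light bars past the z-score of 2 and in dark bars past it on every spot (right). Row 9, which holds most of chromosome X, has 45 genes past the threshold and 2 on every spot, and row 1 has medians of opposite sign on the arrays.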

How the data were processed

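RNA of TAT12 and S288C was hybridised on 2-colour arrays of 50-mer oligonucleotides. The authors deposited scanner intensities of each spot and of its local background for either dye, not normalized. The authors also deposited 1 score per gene, a z-score made with genArise from the swap, with its version and its background step not stated, used only as an alternative. Its direction, not stated in the files, was found from its correlation with the ratios computed here (r = 0.85), and its median was 0.0052. The deposited z-scores of single arrays and the rescaled net intensities were not used.

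Background correction used normexp with an offset of 50 on all spots (limma 3.58.1, R 4.3.3). A loess curve per array then normalized the log2 ratios, and control and empty spots had no weight in it. Duplicate spots were averaged, the second array was turned to TAT12 over S288C and both arrays were averaged. For the z-score, genes were ranked by mean intensity and each was compared with its 100 neighbours, 50 dimmer and 50 brighter. Above background means a net signal, averaged over both spots, that exceeded 95 percent of the 320 empty spots in both dyes of both arrays. Taken alone, 3267 genes exceeded it on the first array and 3312 on the second. The number of arrays limits the precision. Python 3.11.15 with numpy 2.4.6, pandas 2.3.3 and matplotlib 3.10.9 did the rest. The steps were run on simulated arrays with known changes, placed only in genes above background and without differences between print rows. That run checks the computation and does not measure how accurate the calls are on these arrays.

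Of the 6336 probes, 5763 matched a RefSeq locus tag directly and 5847 once a final -R was removed, and current symbols were taken from it. The files name no build, so no coordinates are given, and 275 probes name several genes, whose values cannot be separated. The genes named are the 12 largest rises and the 12 largest falls among genes past the threshold on every spot whose probe names 1 gene. For each of 60 gene lists they are also up to 4 called members with the largest z-score, or else up to 2 with the largest ratio, and others are said to be chosen after their values were seen or complete a count. Not every gene that this rule names is reported here. Of the symbols in the lists, 10 matched no probe. The comparison, the lists and the rules were chosen with earlier results of these data known.

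Alternatives covered the background correction, median centring, a filter on dim spots, each array alone, the neighbours of the z-score, its limit and the deposited z-scores. Loess within each print block (span 0.4), centring of each print row and leaving out print row 9 were added after seeing the data. Promoter sequences were not used here, so no motif was described.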

Additional observations from a re-analysis of the deposited data

How the results depend on the processing

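The limits of these results come from 1 dye swap, 2 arrays that correlate weakly, dim probes and probes that name several genes. No paired analysis was possible because the comparison holds 1 replicate. Whether cultures were extracted once or several times is not given in the sources used here.

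The 197 genes over and 123 down expressed became 71 and 31 with every spot required above background, 962 and 991 past a z-score of 1, and 39 and 6 with a log2 ratio of at least 1, and the second array alone called 63 down. On every spot, the 68 over expressed became 148 against the SD of all genes, 309 past 1 and 37 by log2 ratio. The 17 down expressed on every spot became 29 with spots above background, 44 on the second array alone, 130 against the SD of all genes, 290 past 1 and 4 by log2 ratio. Of these causes, the looser or stricter rule acts by construction and the rest was not tested. The Hsf1 regulon counted 2 members on each array alone in place of 7, and from 6 to 8 otherwise. Other counts stayed within 1.5 times, but the genes were partly different. Shared with the 197 and 123 were 150 of 240 and 53 of 83 without background correction, 186 of 195 and 112 of 117 with median centring, 153 of 195 and 84 of 126 with loess in print blocks, 171 of 191 and 105 of 120 with print rows centred, 90 of 201 and 45 of 173 against the SD of all genes, and 87 of 136 and 57 of 100 by the deposited z-scores. On every spot the deposited z-scores shared 39 of the 68 and 4 of the 17. Of the 24 largest rises and falls, 20 to 22 passed under the other backgrounds and scalings, 12 on the first array alone, 13 on the second alone, and 11 of the 21 that the deposited z-scores hold.

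Among the genes named by rule, a called ratio changed sign in 11 cases, while over all called genes 152 of the 197 over and 118 of the 123 down expressed had the same sign on both arrays. On the first array alone LHS1 was −0.43, ACS1 −0.12, ARG2 −0.43, BI2 −1.01, PHO3 −0.33, TOK1 −0.18, UTP30 −0.24 and RRB1 −0.28. On the second alone SNF1 was −0.020 and VMA1 −0.30, and by the deposited z-score PIR3 was 0.277. The cause was not tested.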
